A study of Mus musculus with 36 samples.

Results

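Uninfected mouse embryonic fibroblasts kept with 1% dimethyl sulfoxide (DMSO) were set against untreated ones at day 2, which shows what the solvent did in cells that carried no transduced factor. The comparison rests on 3 libraries with DMSO and 3 untreated libraries, 6 of the 36 in the study, chosen by their titles alone. All were made from fibroblasts taken at stages E12.5 to E13.5 from mice in which mCherry, a red fluorescent protein, is driven by the promoter of the cardiac myosin gene Myh6. Both groups were kept in StemPro34 serum-free medium that held FGF2 at 10 ng/mL, FGF10 at 50 ng/mL and VEGF at 5 ng/mL. The groups set beside them were uninfected fibroblasts with 1% DMSO and untreated at day 7 and at day 21, and, at day 2, GHMT fibroblasts, which carry transduced Gata4, Hand2, Mef2c and Tbx5, with 1% DMSO and untreated, 3 libraries each. Such a primary culture is a mixture of mesenchymal cells and not a clone. The labels do not say whether the replicates were separate cultures, so the p-values measure only a spread between libraries, which may be technical. That spread was estimated over all 18 uninfected libraries of days 2, 7 and 21, not from these 6 alone. The labels also do not date the start of DMSO, so the length of exposure at day 2 is not known.

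DMSO is a small polar solvent that enters cells freely and is the usual vehicle for drugs, and at higher doses it is used to make some cell lines differentiate. Metallothioneins are small cysteine-rich proteins that bind zinc and copper, and their genes are switched on through metal response elements by the zinc-sensing factor MTF1. Contractile genes of fibroblasts and smooth muscle are driven by serum response factor (SRF) at CArG boxes, and genes of mitosis share CCAAT boxes and cell-cycle homology regions in their promoters.

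Values were TPM, transcript abundances scaled to the same sum in each library. Read depth cannot be had from TPM, so the precision that depth gives is unknown and there are no counting intervals. A gene was tested where it reached 1 TPM in at least 3 of the 18 uninfected libraries of all days, which left 19979 genes. Each change below is the mean log2(TPM + 1) with DMSO minus that of untreated cells, ± the standard error from a limma fit over those 18 libraries, and a gene was called at a Benjamini-Hochberg adjusted p under 0.05. Effects in GHMT cells, and their differences from uninfected cells, came from a separate limma fit over all 36 libraries. A gene described as not overlapping had all 3 DMSO libraries on 1 side of all 3 untreated libraries.

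The fibroblast label held in all 6 libraries. Col3a1, a fibrillar collagen, stood at 4756, 7114 and 7831 TPM with DMSO and 7093, 8055 and 11189 TPM in untreated cells, and the intermediate filament gene Vim at 1013, 1001 and 874 TPM with DMSO and 1342, 1234 and 1204 TPM in untreated cells. Myh6 was at 0 in 2 DMSO libraries and all 3 untreated libraries and at 0.402 TPM in DMSO library 3, so the gene whose promoter drives the reporter was at or near 0. In each library 16858 to 18437 genes reached 1 TPM and protein-coding genes held 51.8 to 57.3% of TPM. The first principal component of the 6 libraries, with 30.3% of their variance, set replicate 3 of each group apart from the others rather than the groups from each other. On the second, with 22.99%, the groups did not overlap. It stood at 1.56, -21.0 and -46.7 with DMSO and 29.2, 6.60 and 30.4 in untreated cells. DMSO library 1 and untreated library 3 stood apart in their interferon response genes. In bulk RNA, fewer cells of a type and less RNA per cell cannot be told apart.

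Of the 19979 genes tested at day 2, 57 were called, or 0.285%. The 36 higher genes were 0.18% of those tested and the 21 lower genes were 0.105%. Rises lay between 0.33 and 1.17 on the log2 scale with a median of 0.56, and falls had sizes of 0.61 to 2.04 with a median change of -0.97. A change of over 2-fold in TPM + 1 was found in 3 of the rises (0.015% of genes tested) and 10 of the falls (0.0501%). Low genes can pass 2-fold in mean TPM without being counted, such as Slc16a9 (2.38-fold) and Aqp1 (0.31 of untreated). The share of genes above 0 was 57.8% and of genes below it 42.1%. All 57 called genes were without overlap between the groups, a state that 11.1% of all tested genes met in the higher direction and 5.36% in the lower. At an unadjusted p under 0.05 there were 2285 genes (11.4%), 1609 of them higher (8.05%) and 676 lower (3.38%). The median change was 0.05 over all genes and 0.07 over protein-coding genes. Of 13113 protein-coding genes 55 were called (0.419%), and of 6866 genes of other types 2 (0.0291%).

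The number of calls rested on the settings and on single libraries, in both directions. It was 121 with rescaling to protein-coding genes, 119 without untreated library 1 of day 21, and 85 and 41 with pseudocounts of 5 and 0.1. With median ratio scaling, under which the median of all genes was -0.01, 14 genes were higher and 44 lower, so that 24.1% of calls were higher in place of 63.2%, and 31 of the 57 genes were among them. Leaving out DMSO library 1, 2 or 3 left 10, 15 or 20 calls, and leaving out untreated library 1, 2 or 3 left 16, 34 or 12. Without replicate 3 of both groups 1 gene was called, Mir669d. Without DMSO library 1 and untreated library 3 the calls were B4galt4, Mt1, Phyhd1, Snx14, Mir669d and Gm23974, a gene outside the main calls, making 6. A fit to these 6 libraries alone called 2 small RNA genes, Gm22305 and Gm24002, and none of the 57. The 8 genes that stayed called whichever of the 6 libraries was left out were Mt1, Mt2, Lrp11, B4galt4, Snx14, Gap43, Phyhd1 and Mir669d. Each other gene of the 57 lost its call in at least 1 such fit, and 24 of them in every one. Mir669d was listed at 0 in every uninfected library but the 3 untreated ones of day 2. Its standard error rests mostly on groups without spread, so its place among the 8 says little. In the fit to these 6 libraries alone its adjusted p was 0.17.

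**Figure D1:**
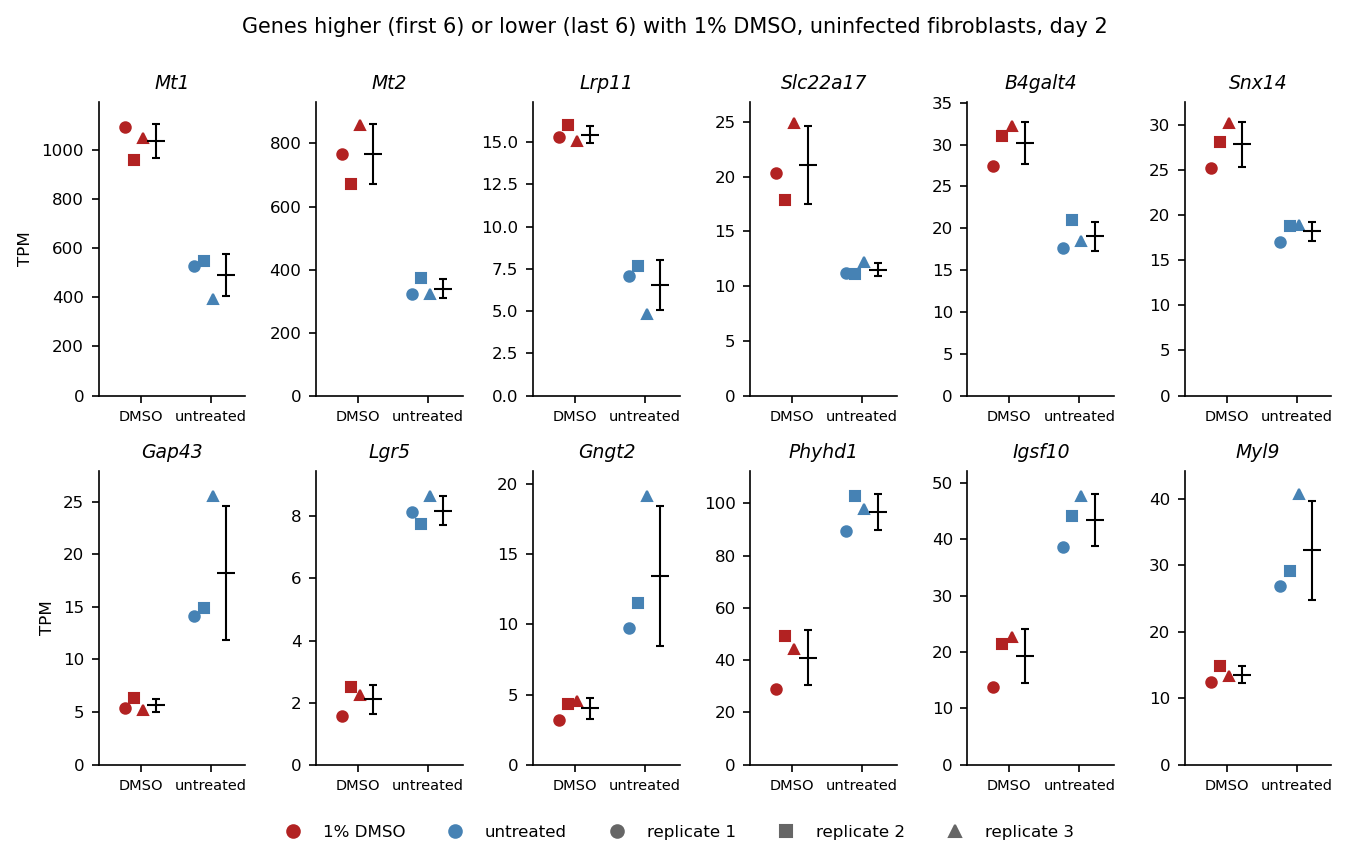
TPM of 6 genes that rose (Mt1, Mt2, Lrp11, Slc22a17, B4galt4, Snx14) and 6 that fell (Gap43, Lgr5, Gngt2, Phyhd1, Igsf10, Myl9) in each library of day 2, with DMSO left of untreated, a symbol for each replicate number and bars for the mean ± SD (n = 3). In every gene drawn the groups do not overlap, as for Mt1 with 960.5 to 1096 TPM with DMSO and 392 to 549 TPM in untreated cells.

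The metallothionein genes rose together. Their promoters are shown because both hold repeats of the metal response element core, TGCACNC or TGCGCNC, in capitals on either strand. They run from 250 bases before the start of transcription to 50 bases after it, 5′ to 3′ on the gene's strand, from RefSeq on build GRCm38.p6. Mt1 lies on the plus strand at chr8:94178839-94179138 and holds 3 cores, beginning 23 bases before the start and 2 and 20 bases after it. Mt2 lies on the plus strand at chr8:94172368-94172667 and holds 4.
Mt1: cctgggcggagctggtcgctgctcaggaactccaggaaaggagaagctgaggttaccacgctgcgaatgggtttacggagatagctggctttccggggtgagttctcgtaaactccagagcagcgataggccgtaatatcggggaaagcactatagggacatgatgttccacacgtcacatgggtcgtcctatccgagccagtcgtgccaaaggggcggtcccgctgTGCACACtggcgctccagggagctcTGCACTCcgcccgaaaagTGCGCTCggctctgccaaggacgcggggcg
Mt2: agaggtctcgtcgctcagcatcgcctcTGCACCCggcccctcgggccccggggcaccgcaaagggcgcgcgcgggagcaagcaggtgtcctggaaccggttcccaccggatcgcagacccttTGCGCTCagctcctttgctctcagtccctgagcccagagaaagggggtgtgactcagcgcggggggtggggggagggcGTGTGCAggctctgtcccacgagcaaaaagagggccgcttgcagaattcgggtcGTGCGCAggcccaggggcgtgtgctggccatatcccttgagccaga
The core was found in 9 of 17 promoters of the metallothionein and zinc transport list (52.9%) and in 25.7% of all 32851 promoters of the table. It was as frequent in the DNA replication list, with 24 of 41 promoters (58.5%). The mitosis list had it in 42.1% and the contractile list in 41.2%, so the core does not set the zinc genes apart. A match of letters is a description and does not show that a factor binds.

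Mt1 stood at 1096, 960.5 and 1051 TPM with DMSO and at 528, 549 and 392 TPM in untreated cells. Mt2 stood at 768, 671 and 860.0 TPM with DMSO and at 324, 374 and 321 TPM in untreated cells. For both genes the lowest DMSO library was far above the highest untreated library. The rise of Mt1 was 1.09 ± 0.13 with an adjusted p of 0.0069, and that of Mt2 was 1.17 ± 0.16 with an adjusted p of 0.0076. With any library left out the adjusted p stayed at or below 0.038 for Mt1 and 0.043 for Mt2. The other genes of zinc handling moved less. Of 14 tested genes of the list of 17, 10 were higher and 4 lower with DMSO, against 57.8% of all genes above 0. Of these 14, 2 were called higher, against 0.18% of all genes, and 5 were higher without overlap, against 11.1%. The median change of the list was 0.12 against 0.05 over all genes. Slc30a1, the zinc exporter of the cell surface, averaged 6.68 TPM with DMSO and 4.89 TPM in untreated cells without overlap, a change of 0.37 with an adjusted p of 0.29. Mtf1, the zinc-sensing factor, averaged 9.28 TPM with DMSO and 7.53 TPM in untreated cells, a change of 0.28 that was also not called.

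The other rises were genes of varied roles. Lrp11, a membrane protein of the LDL receptor-related family, had 15.3, 16.01 and 15.1 TPM with DMSO and 7.06, 7.67 and 4.84 TPM in untreated cells. The 3 DMSO values were nearly equal and all above the untreated ones, and the gene rose by 1.15 ± 0.16 (adjusted p = 0.0076). Slc16a9, of the monocarboxylate transporter family, had 6.11, 4.49 and 5.86 TPM with DMSO and 2.03, 3.06 and 1.83 TPM in untreated cells and rose by 0.98 ± 0.17. Slc22a17, a receptor for lipocalin 2, had 20.4, 17.9 and 24.9 TPM with DMSO and 11.2, 11.1 and 12.2 TPM in untreated cells, a rise of 0.81 ± 0.15 that was lost in each fit without a library. Glcci1, named for its induction by glucocorticoids, had 11.7, 10.8 and 10.0 TPM with DMSO and 4.61, 7.21 and 5.13 TPM in untreated cells and rose by 0.85 ± 0.15. The calls of Slc16a9 and Glcci1 were each lost in 5 of 6 fits without a library, and that of Slc16a9 also under median ratio scaling.

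B4galt4 and Snx14 rose less but with little spread. B4galt4, a galactosyltransferase of the Golgi, had 27.5, 31.0 and 32.2 TPM with DMSO and 17.7, 21.0 and 18.5 TPM in untreated cells. It rose by 0.64 ± 0.08 (adjusted p = 0.0076). Snx14, a sorting nexin, had 25.2, 28.1 and 30.2 TPM with DMSO and 17.0, 18.7 and 18.9 TPM in untreated cells and rose by 0.58 ± 0.08. In both genes a clear gap lay between the groups. Aplp2, a relative of the amyloid precursor protein, rose by 0.57 ± 0.08, with 209, 225 and 221 TPM with DMSO and 141, 156 and 144 TPM in untreated cells. Lrpap1, a chaperone for LDL receptor family proteins, rose by 0.57 ± 0.10, and Arsg, a lysosomal sulfatase, by 0.73 ± 0.14, but neither was called once any library was left out. Rogdi had 14.6, 13.0 and 12.4 TPM with DMSO and 6.85, 8.39 and 5.97 TPM in untreated cells and rose by 0.84 ± 0.13. The call of Aplp2 was lost in 3 of 6 fits without a library and that of Rogdi in 4. Under median ratio scaling the calls of Rogdi and Lrpap1 were lost.

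The remaining named rises were smaller or less certain. Hmgb2, a chromatin protein abundant in dividing cells, had 11.6, 10.4 and 7.71 TPM with DMSO and 5.76, 4.95 and 4.36 TPM in untreated cells and rose by 0.84 ± 0.16 (adjusted p = 0.048). Pop5, a subunit of RNase P and RNase MRP, rose by 0.61 ± 0.10, and Rangap1, which activates the GTPase Ran, by 0.58 ± 0.11. In all 3 of these genes the groups were clear of each other. Lactb, a mitochondrial protein, rose by 0.57 ± 0.09, and Dcun1d2, of the neddylation machinery, by 0.57 ± 0.10. Ndrg3 rose by 0.56 ± 0.09, and Zswim7, a DNA repair factor, by 0.54 ± 0.10. The 16 called rises outside the rule for named genes were smaller, 0.33 to 0.52, and include Oaz1 and Amd1, both of polyamine metabolism, the lysosomal galactosidase Glb1 and the autophagy gene Atg12. They were named after their values were seen. The calls of Rangap1 and Zswim7 were each lost in all 6 fits without a library, those of Hmgb2, Pop5, Dcun1d2 and Ndrg3 in 5 of 6 and that of Lactb in 4 of 6. Under median ratio scaling Dcun1d2 was the only 1 of these 7 still called.

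The falls were larger than the rises. Lgr5, a receptor for R-spondins that raises Wnt signalling, had 1.58, 2.49 and 2.24 TPM with DMSO and 8.14, 7.75 and 8.67 TPM in untreated cells. The lowest untreated value was far above the highest DMSO value. Lgr5 fell by 1.58 ± 0.22 on the log2 scale (adjusted p = 0.0095), a call that was lost without untreated library 3 or without DMSO library 1. Gap43, a growth-associated protein of axons, had 5.34, 6.36 and 5.17 TPM with DMSO and 14.2, 14.9 and 25.6 TPM in untreated cells. Untreated library 3 was the highest of its group, no library crossed over, and Gap43 fell by 1.49 ± 0.19 (adjusted p = 0.0076). Gngt2, a G protein gamma subunit of the transducin type, had 3.17, 4.34 and 4.57 TPM with DMSO and 9.76, 11.5 and 19.2 TPM in untreated cells. It fell by 1.48 ± 0.22, again with untreated library 3 the highest, a call that was lost without DMSO library 1.

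Phyhd1, which encodes a protein with a phytanoyl-CoA dioxygenase domain, had 29.1, 49.3 and 44.4 TPM with DMSO and 89.4, 103 and 97.7 TPM in untreated cells. DMSO library 1 was the lowest, and no DMSO value came near an untreated one. Phyhd1 fell by 1.25 ± 0.16 (adjusted p = 0.0076). Ptgis, prostacyclin synthase, had 29.3, 33.3 and 39.4 TPM with DMSO and 54.9, 49.9 and 77.1 TPM in untreated cells and fell by 0.80 ± 0.14 (adjusted p = 0.036). Cth, the enzyme that makes cysteine from cystathionine, had 2.33, 3.29 and 3.31 TPM with DMSO and 6.39, 5.78 and 6.93 TPM in untreated cells and fell by 0.90 ± 0.16. Gsdmd, the pore-forming protein of pyroptosis, had 15.3, 16.9 and 21.2 TPM with DMSO and 27.1, 26.9 and 42.4 TPM in untreated cells and fell by 0.80 ± 0.16. The calls of Cth and Gsdmd were each lost in all 6 fits without a library, and that of Ptgis in 4 of 6.

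Igsf10, a large immunoglobulin superfamily protein of mesenchymal cells, had 13.8, 21.4 and 22.6 TPM with DMSO and 38.6, 44.0 and 47.6 TPM in untreated cells. It fell by 1.16 ± 0.20 (adjusted p = 0.033). Loxl4, a lysyl oxidase that crosslinks matrix, had 2.96, 4.17 and 3.74 TPM with DMSO and 6.60, 6.93 and 10.5 TPM in untreated cells and fell by 0.95 ± 0.15. C1qtnf5, a secreted protein with a C1q domain, had 10.2, 13.2 and 12.7 TPM with DMSO and 22.2, 21.1 and 26.2 TPM in untreated cells and fell by 0.89 ± 0.16. In these 3 genes every DMSO library was below every untreated one. Aqp1, a water channel, was low throughout, with 0.799, 0.985 and 0.453 TPM with DMSO and 2.28, 2.14 and 2.80 TPM in untreated cells, and fell by 0.97 ± 0.17. The calls of Igsf10, C1qtnf5 and Aqp1 were each lost in all 6 fits without a library, and that of Loxl4 in 3 of 6. The other called falls that the rule did not name were all under 5 TPM in both groups and were Palm2, Lgi4, Lrrc15, Jph2, Gm16046 and the microRNA gene Mir669d. Mir669d was listed at 0 in all 3 DMSO libraries and at 4.50, 2.22 and 2.95 TPM in untreated ones. It belongs to a family of near-identical copies, so its reads may be split between them and its value is uncertain.

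Genes of mitosis were higher with DMSO as a group, but none passed the adjusted test at the settings used throughout. The promoters of Bub1b, a kinase of the spindle checkpoint, and Anln, the cytokinesis scaffold anillin, are shown because both hold the cell-cycle homology region TTTGAA, and Bub1b also a CCAAT box, in capitals on either strand. They cover the same window from RefSeq on build GRCm38.p6. Bub1b lies on the plus strand at chr2:118597961-118598260 and Anln on the minus strand at chr9:22389157-22389456.
Bub1b: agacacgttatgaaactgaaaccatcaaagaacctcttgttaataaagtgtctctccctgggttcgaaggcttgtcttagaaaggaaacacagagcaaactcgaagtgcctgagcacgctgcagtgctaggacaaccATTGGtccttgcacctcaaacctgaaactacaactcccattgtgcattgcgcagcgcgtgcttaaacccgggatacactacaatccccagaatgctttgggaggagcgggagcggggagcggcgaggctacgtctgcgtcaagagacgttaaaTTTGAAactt
Anln: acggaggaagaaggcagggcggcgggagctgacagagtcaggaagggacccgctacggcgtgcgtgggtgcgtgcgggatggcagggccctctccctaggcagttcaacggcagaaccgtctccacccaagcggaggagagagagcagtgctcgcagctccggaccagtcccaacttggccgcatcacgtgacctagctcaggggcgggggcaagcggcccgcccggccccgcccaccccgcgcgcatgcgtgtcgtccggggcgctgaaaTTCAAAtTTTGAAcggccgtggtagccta
CCAAT was found in 26 of 38 promoters of the mitosis list (68.4%) and in 37.4% of all 32851 promoters. TTTGAA was found in 27 of 38 (71.1%) and in 17.9% of all, and both together in 22 of 38 (57.9%) and in 6.95% of all.

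Bub1b had 9.93, 9.36 and 7.55 TPM with DMSO and 3.50, 4.74 and 4.01 TPM in untreated cells, a change of 0.97 ± 0.19 with an adjusted p of 0.053. Anln had 14.1, 17.1 and 9.77 TPM with DMSO and 5.54, 8.38 and 4.73 TPM in untreated cells, a change of 1.02 ± 0.28 with an adjusted p of 0.15. In both genes the DMSO libraries lay above the untreated ones, with DMSO library 3 the lowest of its group. Bub1b passed the threshold in other settings, among them a pseudocount of 5 (adjusted p = 0.018), and its adjusted p lay between 0.018 and 0.29 over the other settings and the fits without 1 library. Cdk1, the kinase that starts mitosis, had 44.0, 53.02 and 28.2 TPM with DMSO and 22.1, 34.9 and 22.3 TPM in untreated cells, and the groups overlapped. All 44 genes of the list had values above 0, with a median change of 0.82 against 0.05 over all genes, of which 57.8% were above 0. Of the 44, 26 had an unadjusted p under 0.05, against 8.05% of all genes in that direction, and 15 were higher without overlap, against 11.1% of all genes. Their summed level was 458, 533 and 289 TPM with DMSO and 190, 312 and 205 TPM in untreated cells, so DMSO library 3 lay below untreated library 2. Leaving out each library in turn kept 43 or 44 of them higher, with medians of 0.61 to 1.07.

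DNA replication genes followed with smaller differences. Of 43 tested, 37 were higher and 6 lower, against 57.8% of all genes above 0, and 19 were higher without overlap, against 11.1% of all genes. None was called, and the median change was 0.28, which was 0.16 without DMSO library 1 and untreated library 3. Their summed level of 425, 425 and 359 TPM with DMSO did not overlap that of 331, 348 and 326 TPM in untreated cells. Pcna, the sliding clamp of DNA polymerase, had 47.9, 45.6 and 36.2 TPM with DMSO and 31.9, 33.8 and 28.2 TPM in untreated cells, a change of 0.45 ± 0.16. Rfc2, of the clamp loader, had 33.0, 32.4 and 29.5 TPM with DMSO and 23.2, 22.2 and 24.9 TPM in untreated cells, a change of 0.42 ± 0.11. Rrm1, the large subunit of ribonucleotide reductase, went the other way, with 20.9, 26.3 and 21.3 TPM with DMSO and 26.1, 27.4 and 28.8 TPM in untreated cells.

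Among inhibitors of the cell cycle, Cdkn1a (p21) had 67.3, 119 and 75.3 TPM with DMSO and 142, 171 and 143 TPM in untreated cells, a change of -0.83 ± 0.22 with an adjusted p of 0.14. Cdkn1c (p57) had 289, 283 and 244 TPM with DMSO and 458, 372 and 360.3 TPM in untreated cells, a change of -0.54 ± 0.24. Both were lower without overlap, whereas Cdkn2d (p19) was higher without overlap at 8.38, 8.59 and 7.26 TPM with DMSO and 5.22, 5.82 and 6.32 TPM in untreated cells. Of 25 p53 targets and CDK inhibitors, 8 were above 0 and 17 below, with a median change of -0.17 and no call. The median was -0.03 without untreated library 2, -0.05 without DMSO library 3 and -0.08 without DMSO library 1.

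**Figure D2:**
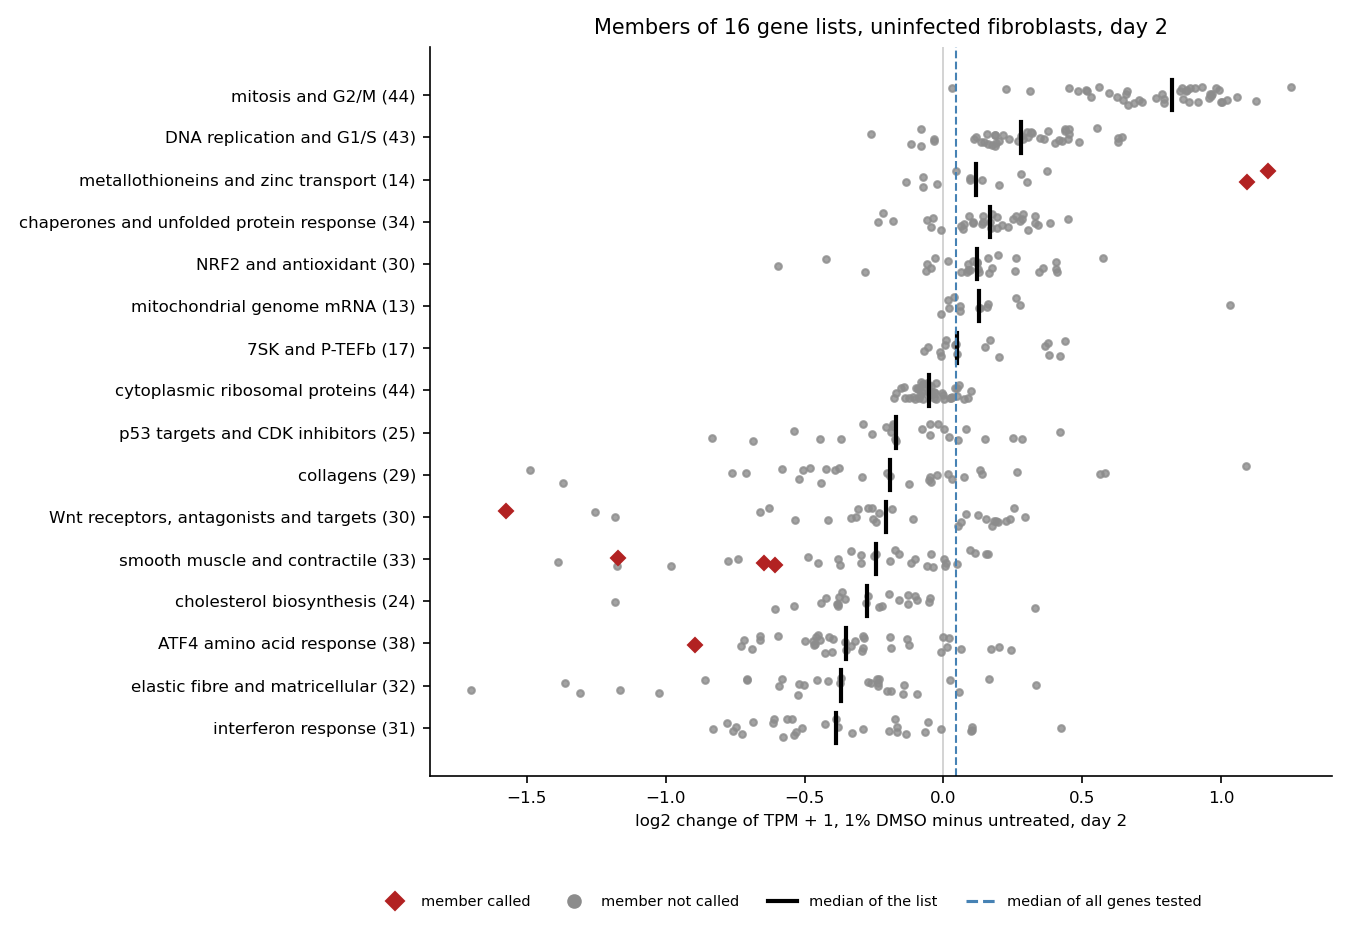
Change with DMSO at day 2 on the log2(TPM + 1) scale for each tested member of 16 gene lists, 1 list a line with its number of members, with called members as diamonds, the median of each list as a bar and the median of all genes as a dashed line. The mitosis list lies wholly above 0 with a median of 0.82, and at the other end are interferon response genes with a median of -0.39 and elastic fibre and matricellular genes with -0.37.

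Contractile genes were mostly lower with DMSO, and 3 of them were called. The promoters of Cnn2, calponin 2 that binds actin, and Myl9, the regulatory light chain of smooth and nonmuscle myosin, are shown because each holds a CArG box, in capitals. They cover the same window from RefSeq on build GRCm38.p6, both on the plus strand, Cnn2 at chr10:79988350-79988649 and Myl9 at chr2:156775214-156775513. The box begins 56 bases before the start in Cnn2 and 161 bases before it in Myl9.
Cnn2: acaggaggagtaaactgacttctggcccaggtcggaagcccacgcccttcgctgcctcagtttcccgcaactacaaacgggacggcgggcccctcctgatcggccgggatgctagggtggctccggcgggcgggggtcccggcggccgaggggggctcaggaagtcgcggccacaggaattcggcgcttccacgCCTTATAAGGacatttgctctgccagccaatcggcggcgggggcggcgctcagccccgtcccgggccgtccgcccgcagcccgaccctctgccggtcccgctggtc
Myl9: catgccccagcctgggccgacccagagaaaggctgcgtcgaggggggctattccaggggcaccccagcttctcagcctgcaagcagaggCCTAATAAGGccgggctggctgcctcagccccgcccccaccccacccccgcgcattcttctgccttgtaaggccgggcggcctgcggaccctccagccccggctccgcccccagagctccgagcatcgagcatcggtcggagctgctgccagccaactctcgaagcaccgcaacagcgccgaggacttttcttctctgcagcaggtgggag
A CArG box was found in 7 of 34 promoters of the contractile list (20.6%) and in 1.63% of all 32851 promoters.

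Myl9 had 12.4, 14.8 and 13.4 TPM with DMSO and 26.8, 29.1 and 40.7 TPM in untreated cells. It fell by 1.17 ± 0.20 (adjusted p = 0.032), and the call was lost in each fit without a library. Cnn2 had 32.4, 34.8 and 31.0 TPM with DMSO and 54.4, 45.5 and 56.1 TPM in untreated cells and fell by 0.65 ± 0.10 (adjusted p = 0.014). Csrp2, a LIM protein of smooth muscle, had 17.9, 19.3 and 16.9 TPM with DMSO and 27.4, 26.6 and 30.0 TPM in untreated cells and fell by 0.61 ± 0.11 (adjusted p = 0.035). The call of Cnn2 was lost in 4 of 6 fits without a library, and that of Csrp2 in all 6 and under median ratio scaling. The DMSO values of each of these genes were close together and all below the untreated ones. Of 33 contractile genes tested, 25 were below 0 and 8 above, and 3 were called lower, against 0.105% of all genes. Without overlap 10 were lower, against 5.36% of all genes. At an unadjusted p under 0.05, 11 were lower, against 3.38% of all genes in that direction. The summed level of the list overlapped, at 4231, 4094 and 4070 TPM with DMSO and 4615, 4176 and 4379 TPM in untreated cells. The median change was -0.24, and it stayed between -0.31 and -0.15 as each library was left out, nearest to 0 without untreated library 3. Without that library and DMSO library 1 it was -0.11, with 11 of 33 genes above 0. Actb, cytoplasmic actin, overlapped between the groups at 1271, 1152 and 1205 TPM with DMSO and 1277, 1087 and 1262 TPM in untreated cells. The list of SRF, MRTF and YAP targets was even, with 14 of 28 genes above 0 and 14 below and a median of -0.01.

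Matrix genes were mostly lower with DMSO, but no member of the matrix lists passed the adjusted test at day 2. Mfap4, a microfibril-associated protein, had 20.2, 37.7 and 43.3 TPM with DMSO and 65.5, 70.6 and 129 TPM in untreated cells, a change of -1.36 ± 0.32 with an adjusted p of 0.096. Wisp2, a matricellular CCN protein, had 1.64, 2.50 and 4.02 TPM with DMSO and 7.84, 7.34 and 20.6 TPM in untreated cells, a change of -1.70 ± 0.40 with an adjusted p of 0.097. In both genes untreated library 3 was well above the rest of its group and DMSO library 1 was the lowest of all. Of 32 elastic fibre and matricellular genes 28 were below 0, against 42.1% of all genes, and 11 of them were without overlap, against 5.36%, with a median of -0.37. Among 29 collagens 20 were below 0 with a median of -0.19. Without DMSO library 1 and untreated library 3 these medians were -0.07 and 0.20, so the collagens turned to higher, with 20 of 29 above 0. Leaving out either of these libraries alone was enough to turn them, with medians of 0.02 without DMSO library 1 and 0.04 without untreated library 3. Proteoglycans had 17 of 23 genes below 0 with a median of -0.13, which was 0.06 without DMSO library 1 and 0.12 without both libraries. Proteases and their inhibitors had 13 of 24 below 0 with a median of -0.03, which turned to 0.12 without DMSO library 1, 0.04 without untreated library 3 and 0.0082 without untreated library 2.

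Single matrix genes differed in direction. Col20a1, a fibril-associated collagen, was higher without overlap at 7.34, 4.23 and 7.17 TPM with DMSO and 2.92, 2.98 and 1.37 TPM in untreated cells, a change of 1.09 ± 0.24 with an adjusted p of 0.081. Col28a1 was lower at 0.601, 1.59 and 1.63 TPM with DMSO and 2.30, 4.09 and 10.2 TPM in untreated cells, a change of -1.37 ± 0.39. Untreated library 3 was again the highest. Mmp3 (stromelysin), a matrix protease, had 2.40, 7.80 and 6.71 TPM with DMSO and 12.53, 26.3 and 39.8 TPM in untreated cells, a change of -2.01 ± 0.45 with an adjusted p of 0.086. Fmod, a small proteoglycan that binds collagen, had 9.26, 12.505 and 15.4 TPM with DMSO and 18.9, 18.2 and 27.9 TPM in untreated cells, a change of -0.76 ± 0.23. Each of these 4 genes was without overlap and none was called. The membrane protease Mmp14 was higher in the means, with 423, 546 and 704 TPM with DMSO and 350.3, 367 and 469.5 TPM in untreated cells, but the groups overlapped.

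**Figure D3:**
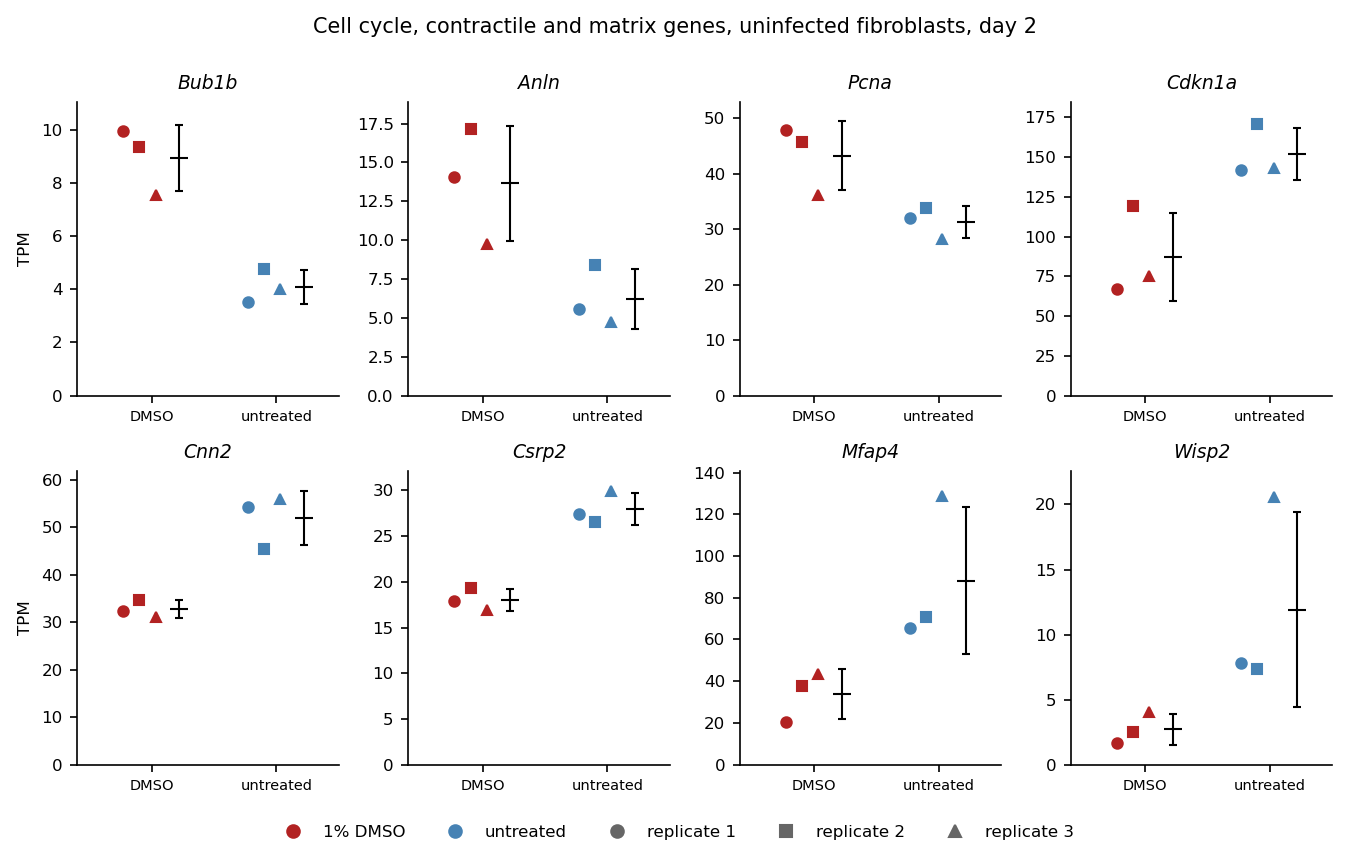
TPM of 8 cell-cycle, contractile and matrix genes (Bub1b, Anln, Pcna, Cdkn1a, Cnn2, Csrp2, Mfap4, Wisp2) in each library of day 2, with DMSO left of untreated, a symbol for each replicate number and bars for the mean ± SD (n = 3). Bub1b lies between 7.55 and 9.93 TPM with DMSO and between 3.50 and 4.74 TPM in untreated cells, and Mfap4 between 20.2 and 43.3 TPM with DMSO and between 65.5 and 129 TPM in untreated cells.

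Signalling genes gave calls at 2 receptors or antagonists, and the medians of their lists lay between -0.21 and 0.01. Grem1, a secreted antagonist of BMPs, had 1.41, 1.53 and 1.24 TPM with DMSO and 3.23, 3.05 and 2.76 TPM in untreated cells and fell by 0.74 ± 0.12 (adjusted p = 0.023), a call that was lost in all 6 fits without a library and with a pseudocount of 0.1. It was the only called gene of 32 TGF-beta and BMP genes, 20 of which were below 0 with a median of -0.09. Lgr5, described above, was the only called gene of 30 Wnt receptors, antagonists and targets, 17 of which were below 0 with a median of -0.21. Without overlap 8 of the 30 were lower, against 5.36% of all genes, and 1 was higher, against 11.1%. At an unadjusted p under 0.05, 6 were lower, against 3.38% of all genes, and 1 was higher, against 8.05%. Nkd1, a Wnt target that dampens the pathway, had 4.47, 7.00 and 7.93 TPM with DMSO and 9.55, 9.47 and 13.0 TPM in untreated cells, a change of -0.66 ± 0.18 with an adjusted p of 0.15. Of 16 insulin-like growth factor genes 11 were below 0 with a median of -0.13. Without overlap 5 of the 16 were lower, against 5.36% of all genes, and 0 higher. Their summed level did not overlap, at 7330, 8856 and 7955 TPM with DMSO and 9309, 9888 and 10522 TPM in untreated cells. Igfbp2, which binds insulin-like growth factors, had 31.8, 34.6 and 24.3 TPM with DMSO and 58.3, 53.1 and 68.2 TPM in untreated cells, a change of -0.97 ± 0.30. Without DMSO library 1 and untreated library 3 the medians of these 3 lists were 0.09, 0.04 and 0.18, so their direction was the opposite there. Without DMSO library 1 alone the medians were 0.03 for TGF-beta and BMP genes and 0.06 for insulin-like growth factor genes, which stood at 0.02 without untreated library 3. The 29 genes of FGF, VEGF and ERK feedback, pathways fed by the medium, had a median of 0.01 with no call, which was -0.13 without DMSO library 3. The 9 Notch genes had a median of -0.0038, which was 0.13 without DMSO library 1 and 0.05 without untreated library 1.

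Targets of ATF4, the factor that raises amino acid uptake and synthesis under stress, were lower as a group. Of 38 genes 32 were below 0, against 42.1% of all genes. Of these 18 were without overlap, against 5.36% of all genes, and 16 had an unadjusted p under 0.05, against 3.38%. The median was -0.35. Cth, described above, was the only call. Slc7a3, a cationic amino acid transporter, had 1.27, 1.51 and 2.10 TPM with DMSO and 3.41, 2.88 and 3.09 TPM in untreated cells, a change of -0.66 ± 0.14 with an adjusted p of 0.074. Slc7a11, the cystine importer, had 2.07, 2.46 and 2.92 TPM with DMSO and 3.74, 4.16 and 4.87 TPM in untreated cells, a change of -0.60 ± 0.17. The median of the list stayed between -0.42 and -0.24 as each library was left out and was -0.19 without DMSO library 1 and untreated library 3.

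Chaperone and antioxidant genes lay slightly above 0. Of 34 chaperone and unfolded protein genes 27 were higher with a median of 0.17, and 3 of them were without overlap, a share below the 11.1% of all genes. The median was 0.10 under median ratio scaling. Calr, the calcium-binding chaperone of the endoplasmic reticulum, had 903, 995 and 891 TPM with DMSO and 709, 815 and 544 TPM in untreated cells, a change of 0.45 ± 0.13 with an adjusted p of 0.19. Of 30 NRF2 and antioxidant genes 23 were higher with a median of 0.12 and no call, and the median was 0.05 under median ratio scaling. Taldo1, of the pentose phosphate pathway, had 55.9, 57.6 and 49.7 TPM with DMSO and 44.1, 47.6 and 36.8 TPM in untreated cells, without overlap. The heat shock gene Hspa8 was level, at 1197, 1242 and 1156 TPM with DMSO and 1266, 1255 and 1182 TPM in untreated cells, with overlap. Osmotic stress genes were even, with 11 of 22 above 0 and 11 below, and Aqp1 was the only call.

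Cholesterol synthesis genes were lower in 23 of 24 cases, with a median of -0.28 and no call. The median was -0.08 without DMSO library 3, -0.12 without untreated library 1, -0.43 without DMSO library 1 and -0.55 without DMSO library 1 and untreated library 3. Fdft1, squalene synthase, had 15.8, 11.9 and 8.03 TPM with DMSO and 24.9, 16.8 and 14.0 TPM in untreated cells, and the groups overlapped. Glycolysis genes had a median of 0.03 over 30 genes, which was -0.07 without untreated library 3 and -0.03 without DMSO library 2, and lipid handling genes one of -0.03 over 35.

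**Figure D4:**
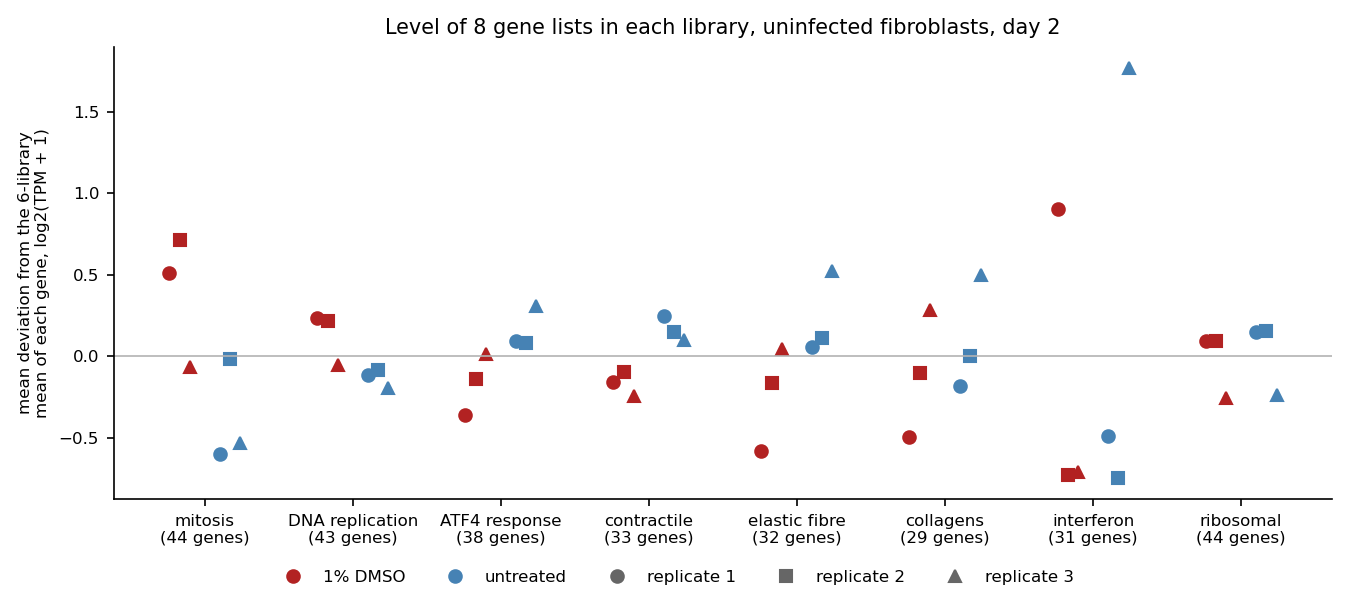
Mean deviation of 8 gene lists from each gene's mean over the 6 libraries of day 2, on the log2(TPM + 1) scale, with the DMSO libraries left of the untreated ones and a symbol for each replicate number. Interferon response genes stand at 0.90 in DMSO library 1 and 1.77 in untreated library 3 and at -0.49 or lower in the other 4 libraries, and contractile genes do not overlap between the groups, with -0.24 to -0.09 with DMSO and 0.10 to 0.25 in untreated cells.

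The 7SK RNA, which holds the elongation factor P-TEFb inactive, took 6.18, 4.79 and 4.13% of TPM with DMSO and 4.12, 4.03 and 3.37% in untreated cells. The groups did not overlap, although DMSO library 3 was only just above untreated library 1, and the change of Rn7sk was 0.37 ± 0.18 with an adjusted p of 0.44. The genome holds many near-identical copies of 7SK, so its value is uncertain. Hexim1, the protein that inhibits P-TEFb within that complex, had 22.3, 25.9 and 23.9 TPM with DMSO and 17.0, 18.3 and 17.1 TPM in untreated cells, a change of 0.44 ± 0.11 with an adjusted p of 0.11. Brd2, a bromodomain protein, had 105, 106 and 121 TPM with DMSO and 82.6, 88.2 and 86.2 TPM in untreated cells, a change of 0.36 ± 0.11. Both protein-coding genes were higher without overlap. Of 17 genes of the 7SK and P-TEFb list 13 were above 0 with a median of 0.05, which was -0.02 under median ratio scaling.

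Among chromatin enzymes 18 of 30 were above 0 with a median of 0.09, which was -0.0085 with 12 of 30 above 0 without DMSO library 3, and 0.02 under median ratio scaling. Hdac3, a histone deacetylase, had 48.3, 49.5 and 51.5 TPM with DMSO and 39.2, 40.7 and 40.5 TPM in untreated cells, a change of 0.30 ± 0.06 with an adjusted p of 0.054. Of the 13 messenger RNAs of the mitochondrial genome 12 were above 0 with a median of 0.13. Under median ratio scaling 7 were above 0 with a median of 0.06, and without replicate 3 of both groups 8 with a median of 0.05. mt-Co2 (cytochrome c oxidase subunit 2) was far from the rest at 986, 902 and 1165 TPM with DMSO and 521, 468 and 496 TPM in untreated cells, a change of 1.03 ± 0.25 with an adjusted p of 0.10. Its neighbour in the same complex, mt-Co1, had 3859.9, 3822 and 3741 TPM with DMSO and 3199, 3705 and 3541 TPM in untreated cells. Cytoplasmic ribosomal protein genes were below 0 in 33 of 44 cases with a median of -0.05, none had an unadjusted p under 0.05, and leaving out single libraries put their median between -0.18, without untreated library 3, and 0.06, without DMSO library 3, and at 0.01 without untreated library 1 or 2.

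Interferon response genes did not separate the groups. Their summed level was 2501, 1325 and 1242 TPM with DMSO and 1323, 1271 and 4239.8 TPM in untreated cells, so DMSO library 1 and untreated library 3 were both high. Of 31 genes 27 were below 0 with a median of -0.39, none without overlap, and with replicate 3 of both groups left out 30 of 31 were above 0 with a median of 0.63. Without untreated library 3 alone the median was 0.44. The part of this difference between libraries in the other results was not tested. Of 25 inflammatory genes 19 were below 0 with a median of -0.22, which was -0.11 without DMSO library 1 and untreated library 3. Icam1, an adhesion molecule, had 8.30, 13.9 and 18.7 TPM with DMSO and 22.5, 24.8 and 35.7 TPM in untreated cells, a change of -1.01 ± 0.29 with an adjusted p of 0.19. Nfkbia, the inhibitor of NF-kappaB, was higher without overlap at 38.6, 40.1 and 48.1 TPM with DMSO and 33.6, 31.0 and 36.9 TPM in untreated cells.

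Markers of the fibroblasts themselves were below 0 in 11 of 12 genes with a median of -0.37 and no call. Thy1, a surface protein of fibroblasts, had 117, 170.3 and 182 TPM with DMSO and 245, 263 and 300.4 TPM in untreated cells without overlap, a change of -0.80 ± 0.29 with an adjusted p of 0.29. Without DMSO library 1 and untreated library 3 the marker median was 0.12, with 7 of 12 genes above 0. Markers of other cell types were low. The summed level of 6 macrophage markers was 14.1, 24.8 and 62.7 TPM with DMSO and 19.97, 20.2 and 28.5 TPM in untreated cells, and that of 6 endothelial markers was 12.7, 14.4 and 17.8 TPM with DMSO and 20.6, 18.3 and 25.3 TPM in untreated cells. Epithelial markers summed to 5.35, 4.45 and 1.54 TPM with DMSO and 17.1, 9.42 and 3.90 TPM in untreated cells, most of it Krt14, a basal keratin, while Epcam did not exceed 0.163 TPM in any library. Skeletal muscle markers summed to 1.56, 1.62 and 1.36 TPM with DMSO and 4.13, 2.89 and 2.18 TPM in untreated cells, most of it Des (desmin), which smooth muscle also makes, and Myod1 did not exceed 0.0471 TPM. The sums of the endothelial, epithelial and skeletal muscle markers were lower with DMSO in the means. Epicardial and mesothelial markers were present, led by Msln at 62.4, 56.9 and 27.2 TPM with DMSO and 71.5, 55.6 and 35.9 TPM in untreated cells, and 4 of 6 were above 0 with a median of 0.08, which was -0.15 without DMSO library 1, -0.04 without DMSO library 2 and -0.16 without untreated library 3. Transcription factors of position and mesenchyme were below 0 in 25 of 35 genes with a median of -0.12, which was -0.04 without untreated library 3, -0.07 without DMSO library 1 and -0.01 without both. The part of these cells in the results was not tested.

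The cardiac factors that define GHMT were not called in these uninfected cells. Gata4 had 0.90, 0.765 and 2.73 TPM with DMSO and 1.90, 1.81 and 1.48 TPM in untreated cells. Hand2 had 3.40, 3.04 and 3.38 TPM with DMSO and 3.82, 3.30 and 3.16 TPM in untreated cells. Mef2c had 10.4, 10.4 and 12.4 TPM with DMSO and 13.8, 12.4 and 19.2 TPM in untreated cells, and Tbx5 had 5.21, 5.04 and 6.90 TPM with DMSO and 6.17, 6.45 and 8.33 TPM in untreated cells. The groups overlapped in all 4. The 8 cardiomyocyte markers summed to 6.18 to 8.71 TPM with DMSO and 6.96 to 8.37 TPM in untreated cells.

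The same contrast was made at later days. Of the 57 genes called at day 2, 38 were also called at day 7, which is 66.7% of the day 2 calls and 11.3% of the 337 calls of day 7 (1.69% of genes tested). At day 21 it was again 38, or 8.05% of the 472 calls of that day (2.36% of genes tested), and 34 genes were called on all 3 days. The same estimate of each gene's spread served all 3 days. A gene of small spread is thus favoured on each of them, and the shared calls are not independent. The direction was shared by 56 of 57 genes at day 7 and at day 21, against 71.0 and 65.2% of all genes. In GHMT cells at day 2, 55 of 57 had the same direction, against 67.2% of all genes, with a median of 0.37 for the genes that rose and -0.63 for those that fell. Only Pop5 was called there (1 gene, 0.00501% of those tested), with a change of 0.74, beside 1027 genes (5.14%) at an unadjusted p under 0.05. These GHMT effects came from the fit over all 36 libraries, so this count is not a like comparison with the 57. Standard errors there were 0.25 for Mt1 and 0.30 for Mt2, against 0.13 and 0.16 in the 18-library fit. Mt1 rose by 0.88 at day 7 and 0.83 at day 21 and Mt2 by 0.79 and 0.72, and in GHMT cells at day 2 their changes were 0.69 and 0.86, not called there. The mitosis list had a median of 1.01 at day 7 and 0.39 at day 21, and the elastic fibre and matricellular list one of -0.60 and -0.71. The cholesterol synthesis list had a median above 0 on the later days, 0.09 at day 7 and 0.51 at day 21, against -0.28 at day 2. In GHMT cells at day 2 the median was 0.26 for the mitosis list, against 0.82 in uninfected cells. It was -0.23 there for the elastic fibre and matricellular list and -0.18 for the contractile list. The ATF4 list had a median of 0.03 in GHMT cells, against -0.35 in uninfected cells. Differences between the lists of the 2 kinds of cells were not tested.

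Of the genes whose DMSO effect differed between days, 6 were protein-coding, and all 6 were lower with DMSO at day 21 by more than at day 2. The DMSO effect of day 21 differed from that of day 2 in 7 genes (0.035% of those tested, with 797 or 3.99% at an unadjusted p under 0.05). Igf2, a fetal growth factor, had 1566, 2151 and 1828 TPM with DMSO and 2196, 2382 and 2590.3 TPM in untreated cells at day 2, a change of -0.38, against -2.59 at day 21, a difference of -2.21 ± 0.26 (adjusted p = 0.0049). Dlk1, like Igf2 an imprinted gene, had a change of -0.12 at day 2 and -2.51 at day 21, a difference of -2.39 ± 0.34. Among matrix genes, Comp differed by -2.33 ± 0.24 and Postn (periostin) by -2.52 ± 0.34, and their changes at day 2 were -0.19 and -0.46. Apoe, a lipid carrier, differed by -2.85 ± 0.38 and Mdk, the growth factor midkine, by -1.74 ± 0.25. At day 2 none of these 6 genes was called. The calls of Dlk1, Mdk and Postn were each lost in at least 1 fit without a library. The seventh is Mir669d, which was listed at 0 in all libraries of days 7 and 21, so that its difference of 2.04 ± 0.22 is its fall at day 2 with the sign turned.

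Genes that were called at day 2 and not shown to differ later were the more usual case. Myl9 changed by -1.17 at day 2, -1.94 at day 7 and -2.78 at day 21, and its difference between days 21 and 2 was -1.61 ± 0.29 with an adjusted p of 0.11. Cnn2 changed by -0.65, -1.22 and -1.38 over the 3 days. Csrp2 had a change of -0.61 at day 2 but of -0.03 at day 7 and -0.05 at day 21, and this difference was not called (0.56 with an adjusted p of 0.74 between days 21 and 2). The DMSO effect of day 7 differed from that of day 2 in 3 genes (0.015% of those tested, with 460 or 2.3% at an unadjusted p under 0.05), the small RNA genes Mir669d, Gm22710 and AC122546.1, each listed at 0 in at least 1 whole group and named because there are no others. Between uninfected and GHMT cells at day 2 the effect differed in 1 gene (0.00501% of those tested, with 234 or 1.17% at an unadjusted p under 0.05), Mir669d. Lgr5 had a change of -1.58 in uninfected cells and -0.63 in GHMT cells, and Cth one of -0.90 in uninfected cells and 0.17 in GHMT cells, neither with a called difference.

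**Figure D5:**
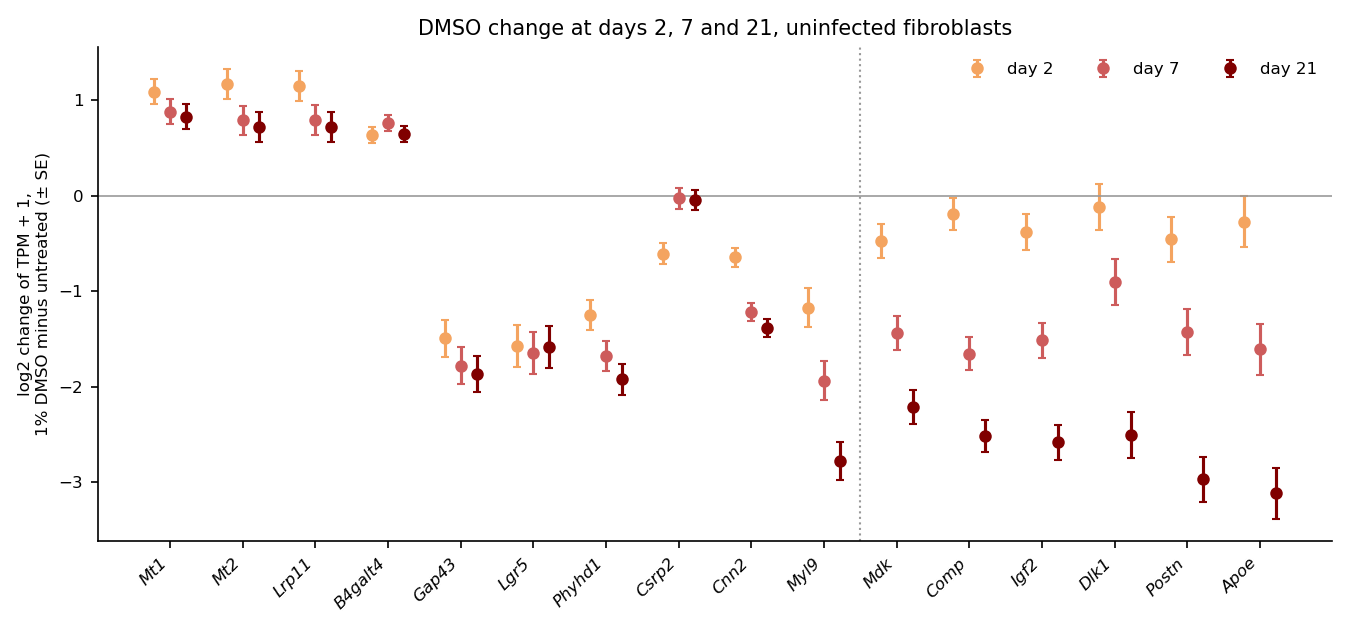
Change with DMSO on the log2(TPM + 1) scale with its standard error at days 2, 7 and 21 in uninfected fibroblasts, for 10 genes called at day 2 left of the dotted line and, right of it, the 6 protein-coding genes whose effect differed between days 21 and 2. Igf2 stands at -0.38 at day 2 and -2.59 at day 21, while Mt1 lies between 0.83 and 1.09 on all 3 days.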

How the data were processed

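RNA of uninfected and GHMT mouse embryonic fibroblasts was measured in 36 libraries, placed in 12 groups of 3 by their labels. The submitters' processing notes name Trimmomatic, FastQC and kallisto, and libraries were made from total RNA with a TruSeq RNA kit, per the labels' protocols. Not given in the sources used here are the genome build, the annotation and the strand setting. Values per Ensembl gene were deposited as TPM by the authors, per the file headers, with 50698 entries, 97 of which name no gene and were left out without rescaling. Repeated symbols were summed, giving 50509.

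From these TPM a log2(TPM + 1) scale was computed, which understates the change of low genes. Genes that reached 1 TPM in 3 or more of the 18 uninfected libraries were fitted with limma 3.58.1 in R 4.3.3, with 1 mean per group, a mean-variance trend, 12 residual degrees of freedom and Benjamini-Hochberg adjustment over all genes. The effect in GHMT cells and its difference from that in uninfected cells came from 1 fit over all 36 libraries with 24 residual degrees of freedom. All tests were two-sided, and an exact permutation test of 3 libraries against 3 was not used because it cannot reach the threshold. The fit was tested on simulated data with independent noise for each gene. Those data held no difference shared across a library, so the test says nothing of how calls hold under such differences.

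The comparison, gene lists and tests were chosen with earlier results of these data known. Named genes were called genes of at least 5 TPM in 1 group, without overlap and without a predicted or clone-type symbol, up to 20 a direction, plus from each list the 2 members a direction with the smallest p and the 2 most abundant, and Rn7sk, the GHMT factors and Myh6. Some genes that this rule names are not reported here. Promoters are from RefSeq on GRCm38.p6 and motifs were searched as exact letters on both strands. Alternatives were other pseudocounts, filters and scalings, a fit without trend, the compared groups alone, replicate blocks, and libraries left out. Leaving out replicate 3 of both groups, or the libraries with high interferon genes, was added after the data were seen.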

Additional observations from a re-analysis of the deposited data

Results flagged for a closer look

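The DMSO effect differed between day 7 and day 2 in uninfected fibroblasts for Mir669d (difference of 2.04 on the log2 scale), Gm22710 (3.53) and AC122546.1 (-1.84), all small RNA genes of a few TPM. It differed between day 21 and day 2 for Mir669d (2.04), Mdk (-1.74), Igf2 (-2.21), Postn (-2.52), Comp (-2.33), Apoe (-2.85) and Dlk1 (-2.39). At day 21 Igf2 averaged 57.6 ± 9.21 TPM with DMSO and 352 ± 70.8 TPM in untreated cells (SD, n = 3 each), and Apoe averaged 7.15 TPM with DMSO and 69.1 TPM in untreated cells. Between uninfected and GHMT cells at day 2 the DMSO effect differed for Mir669d (-2.52), which was listed at 0 in the DMSO libraries of uninfected cells. Each of these came from a test of the difference itself with limma.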

How the results depend on the processing

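The 57 calls of day 2 became 41 and 85 with pseudocounts of 0.1 and 5, 51 without the filter, 60 at a filter of 5 TPM, 58 with median ratio scaling and 38 without the trend. They became 121 with rescaling to protein-coding genes, 119 without untreated library 1 of day 21, 2 in the compared groups alone, 1 without replicate 3 of both groups and 6 without the libraries of high interferon genes, with 10 to 34 when each library was left out. The 7 differences between days 21 and 2 became 11 in the compared groups alone and 4 to 12 with each library left out. The 3 between days 7 and 2 became 1 with a pseudocount of 0.1, 0 at a filter of 5 TPM and 2 to 5 with each library left out. The 1 between uninfected and GHMT cells became 0 with a pseudocount of 0.1, 3 without the filter, 0 at a filter of 5 TPM, 0 without untreated library 1 of day 21 and 0 to 2 with each library left out. The cause was not tested.

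The replicate numbers were not taken to pair the libraries, since the correlations of same-numbered deviations at day 2 were 0.091, 0.092 and 0.20. Every library correlated best with its own number, which is a hint from the data alone. With a replicate block that is the same on all days the calls of day 2 were 166, and with a replicate block within each day 635. Bub1b was called with either block (adjusted p of 0.032 and 0.030) and Anln with the block within each day (0.039), while over the other settings and the fits without 1 library the adjusted p reached 0.29 for Bub1b and 0.43 for Anln. The differences between days 21 and 2 were 15 and 52 with these blocks, and those between days 7 and 2 and between uninfected and GHMT cells were 0 with the block within each day.

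Among named genes that were not called, the direction changed without the libraries of high interferon genes for Col1a2 (0.21), Apoe (0.11), Comp (0.065) and Dlk1 (0.097). With each library left out Col1a2 ranged between -0.39 and 0.040, highest without untreated library 3, Dlk1 between -0.23 and 0.0050, highest without the same library, and Hand2 between -0.092 and 0.014, highest without untreated library 1. Depth limits are unknown because TPM keeps none, and genes under 5 TPM rest on an unknown number of reads.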
